A study of Mus musculus with 34 samples.

Results

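The 10 genes described here encode the small heat shock proteins and the main cytosolic heat shock proteins of the mouse brain. They were taken by symbol from expression tables that list 23951 genes per library. Hspb1, Hspb6, Hspb8 and Cryab encode small heat shock proteins, Hspa1a, Hspa1b and Hspa8 encode Hsp70 proteins, and Hsp90aa1, Dnajb1 and Hsph1 encode an Hsp90, an Hsp40 and an Hsp110 protein. All 10 symbols were present, and all 10 passed the filter on low values in every comparison. RNA was sequenced from the hippocampus of male mice in 4 groups and from sorted cortical nuclei in 2 groups, 27 libraries in all. Every animal carried the floxed allele Hdac1f/f, the controls included. Control mice (4 libraries) carried nothing else, Hdac1 cKO mice (5 libraries) also carried Nestin-Cre, 5XFAD mice (6 libraries) also carried the 5XFAD transgenes, and compound mice (5 libraries, labelled Hdac1f/f, Nestin-Cre, 5XFAD) carried both. Nestin-Cre acts in the precursors of neurons and astrocytes, and microglia keep Hdac1. 5XFAD is a model of Alzheimer's disease whose transgenes are driven by the neuronal Thy1 promoter. The labels give an age of 13 to 14 months for control and Hdac1 cKO mice and of 13 months for both 5XFAD groups, so this difference in age range and the transgenes cannot be told apart. The nuclei came from the cortex of control (3 libraries) and Hdac1 cKO (4 libraries) mice and were sorted with antibodies to GFAP, an astrocyte filament protein, and NeuN, a neuronal nuclear protein. Another GFAP+ control sample was not analysed here.

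Heat shock proteins are chaperones. Small heat shock proteins bind unfolding proteins without using ATP and hold them in a state from which they can be refolded, while Hsp70 proteins fold their clients in cycles of ATP binding and hydrolysis, helped by J-domain proteins such as Dnajb1 and by nucleotide exchange factors such as Hsph1. Hsp90 acts later, on kinases, receptors and other clients that are almost folded. Under proteotoxic stress, heat shock factor 1 binds inverted repeats of a GAA unit in the promoters of the inducible members, whereas Hspa8 is made constitutively. In the brain, Cryab is abundant in oligodendrocytes, Hspb1 is found in vessels and reactive astrocytes, and Hspb8 works with Bag3 in chaperone-assisted autophagy.

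The promoter sequences of 7 members were found in the RefSeq table used here, in 10 entries, and each was located once on mm9, the build of the deposited tables. Hspb1, Hspb6, Hspb8, Hspa1a, Hspa1b, Dnajb1 and Hsph1 matched, and Cryab, Hspa8 and Hsp90aa1 did not. In each window, from 250 bases before to 50 bases after the start, both strands were searched for GAANNTTC and TTCNNGAA (2 inverted heat shock units), for 3 such units in a row, which overlap the pairs, and for the GC box GGGCGG. A pair of units was present in 7 of the 10 entries (6 of the 7 members) against 15.1% of all 32851 promoter entries. A GC box was present in 10 of 10 (7 of 7 members) against 35.7%. The entries are not independent, since the 2 windows of Hsph1 overlap and those of Hspa1a and Hspa1b are nearly identical. Dnajb1 held a GC box but no pair of these letters. Hsph1 alone held 3 units in a row, just after its start, against 0.603% of all promoters. The Hspb8 pair lay at positions 3 to 10 of the transcript. The pairs before the start of the other members are printed here because the pair is the core of the element that heat shock factor 1 binds. Sequences run 5′ to 3′ on the gene's own strand, and capitals mark the paired units.

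Hspb1, chr5:136363652-136363719, plus strand: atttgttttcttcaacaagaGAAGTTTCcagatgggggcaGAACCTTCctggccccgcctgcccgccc
Hspb6, second entry, chr7:31338180-31338227, plus strand: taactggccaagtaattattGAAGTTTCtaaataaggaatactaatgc
Hspa1a, chr17:35109178-35109225, minus strand: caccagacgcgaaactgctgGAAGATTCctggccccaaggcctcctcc
Hspa1b, chr17:35096260-35096307, minus strand: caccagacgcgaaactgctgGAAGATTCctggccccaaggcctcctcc
Hsph1, chr5:150438917-150438964, minus strand: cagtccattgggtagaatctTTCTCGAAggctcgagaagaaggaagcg

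Hspb1 held 2 pairs, at -117 to -110 and at -97 to -90 before the start, and Hspb6 held the first of these letters unchanged at -120 to -113. The printed stretches of Hspa1a and Hspa1b are the same, and their whole windows were identical at 98.7% of 300 bases. Hspa1a (chr17:35106144-35109069) and Hspa1b (chr17:35093381-35096183) lie 9960 bases apart on the minus strand and encode nearly the same protein, so reads can be assigned to either and their separate values are uncertain. Cryab (chr9:50560863-50564738, plus strand) lies 403 bases from Hspb2 (chr9:50559177-50560459, minus strand), another small heat shock protein gene. The remaining members lie at chr5:136363789-136365433 (Hspb1), chr7:31337197-31340462 (Hspb6), chr5:116858500-116872873 (Hspb8), chr9:40609067-40613283 (Hspa8), chr12:111928815-111940938 (Hsp90aa1), chr8:86132074-86135801 (Dnajb1) and chr5:150416862-150438951 (Hsph1), as annotated by GENCODE on mm9.

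Values are FPKM, a read count scaled to the length of the transcript and to the depth of the library. Relative depth, read from the steps between low values, spanned 0.754 to 2.35 in the hippocampus and 0.869 to 1.26 in nuclei. The labels were checked on Hdac1 and Thy1. Hippocampal Hdac1 lay at 5.91 to 10.7 FPKM in controls, 2.36 to 3.03 in Hdac1 cKO, 6.10 to 9.64 in 5XFAD and 1.15 to 2.52 in compound mice. Thy1, whose promoter drives the transgenes, was at 303 to 388 FPKM without and at 1563 to 2357 FPKM with 5XFAD. In nuclei, Hdac1 was at 9.91, 14.5 and 22.3 FPKM in the libraries labelled control and at 5.80, 8.73, 9.71 and 11.5 in those labelled Hdac1 cKO, so the groups overlapped for the targeted gene (log2 fold change -0.70 in limma, standard error 0.28). The 9 astrocyte markers summed to 2968 to 3646 FPKM in nuclei and 1193 to 1622 FPKM in the hippocampus, and 9 neuron markers to 219 to 328 FPKM and 1721 to 2172 FPKM. Oligodendrocyte markers (9 genes) still summed to 468 to 1307 FPKM in nuclei. Markers of the mural cells of vessels (8 genes) summed to 218 to 360 FPKM in nuclei and 45.1 to 76.2 FPKM in the hippocampus. These genes did not differ alike. In control nuclei and control hippocampus Pdgfrb averaged 87.6 and 1.19 FPKM, but Acta2 2.45 and 2.38 FPKM and Myh11 0.236 and 0.269 FPKM. One feature of the hippocampal libraries stands apart. Markers of the choroid plexus, the tissue that borders the ventricles, summed over 10 genes to 660 FPKM in control 1 and 13741 to 21402 FPKM in the other 3 controls, 99.8 to 1711 FPKM in Hdac1 cKO, 96.4 to 8340 FPKM in 5XFAD, 14472 FPKM in compound 1 and 99.5 to 327 FPKM in the other 4 compound libraries.

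The members spanned a graded series of levels. The hippocampal libraries read transcript 3′ ends, so the order of genes after division by length can differ from that of their fragments. On the FPKM scale, which divides by transcript length, Hsp90aa1 and Hspa8 were at 1118 and 1030 FPKM in control hippocampus, Cryab at 254, Hsph1 at 110, Hspb1 at 31.6, Dnajb1 at 22.4, Hspb6 at 7.81, Hspb8 at 6.29, Hspa1a at 2.88 and Hspa1b at 1.65 (means, n = 4). Hspa8 and Hsp90aa1 were at similar levels, with ranges of 939 to 1152 and 1008 to 1268 FPKM, and Hspb6 and Hspb8 overlapped at 3.83 to 9.73 and 4.38 to 9.74 FPKM. The inducible Hsp70 genes were thus far below the constitutive one in every library. In controls the coefficient of variation was 8.80% for Hspa8, 9.76% for Hsp90aa1, 12.3% for Dnajb1, 13.1% for Hsph1, 15.9% for Cryab, 23.1% for Hspa1a, 33.3% for Hspb1, 34.6% for Hspb6, 37.5% for Hspb8 and 40.5% for Hspa1b. The number of fragments differed too. Whole fragments could be recovered, up to a common divisor, for 7 members. In the hippocampus they numbered 24 to 225 for Hspb1, 14 to 215 for Hspb6 and 23 to 112 for Hspb8. Hspa1a had 17 to 91, Hspa1b 6 to 41 and Hsph1 968 to 3082. Dnajb1, below Hspb1 in mean FPKM, had 122 to 445.

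The first comparison asked how loss of Hdac1 in the aged hippocampus changed these genes. Hspb1 was lower in Hdac1 cKO mice by about 2-fold and was the only member called as a differentially expressed gene (DEG). The study's threshold for a DEG is a fold change of at least 1.5 with a p under 0.05, taken here as the unadjusted p. Cryab was lower in every Hdac1 cKO library than in any control, by less than that fold. Hspb6 had a lower mean with overlapping groups, and the other 7 had log2 fold changes between -0.23 and 0.20.

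Hspb1 was at 19.3, 44.99, 31.1 and 31.1 FPKM in the 4 controls and at 12.8, 13.1, 15.2, 13.1 and 17.1 FPKM in the 5 Hdac1 cKO libraries. The Hdac1 cKO values were all below the lowest control and were also far closer to each other. The means were 31.6 ± 10.5 FPKM (SD, n = 4) and 14.3 ± 1.86 FPKM (SD, n = 5). On the log2(FPKM + 1) scale the fold change was -1.04, with a standard error of 0.19 and a 95% interval of -1.46 to -0.62. The limma p was 0.000162 and the adjusted p over all genes 0.0748. The exact two-sided permutation test gave p = 0.0159, the smallest that 4 against 5 allows in this test. For the lowest control, 44 fragments gave a counting interval of 14.0 to 25.9 FPKM, and for the highest Hdac1 cKO library 92 fragments gave 13.8 to 21.0 FPKM. These exact 95% Poisson intervals, which cover counting error only, overlap.

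Cryab was at 216, 310, 252 and 237 FPKM in controls and at 194, 214, 178, 159 and 142 FPKM in Hdac1 cKO mice. The groups did not overlap, but control 1 and Hdac1 cKO 2 were separated by less than 2 FPKM. Mean levels were 254 ± 40.5 FPKM (SD, n = 4) and 177 ± 28.5 FPKM (SD, n = 5). The log2 fold change was -0.52 (standard error 0.13, limma p = 0.00185, adjusted p = 0.155, exact permutation p = 0.0159). Hspb6 was at 3.83, 9.73, 8.54 and 9.13 FPKM in controls and at 7.63, 6.13, 4.58, 4.10 and 2.91 FPKM in Hdac1 cKO mice. Only control 1 fell within the Hdac1 cKO range. Its log2 fold change of -0.52 (standard error 0.27) had an adjusted limma p of 0.497 and an exact permutation p of 0.143. Hspb8 overlapped throughout, at 4.38 to 9.74 FPKM in controls and 2.84 to 8.62 FPKM in Hdac1 cKO mice (log2 fold change -0.23, standard error 0.28).

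**Figure D1:**
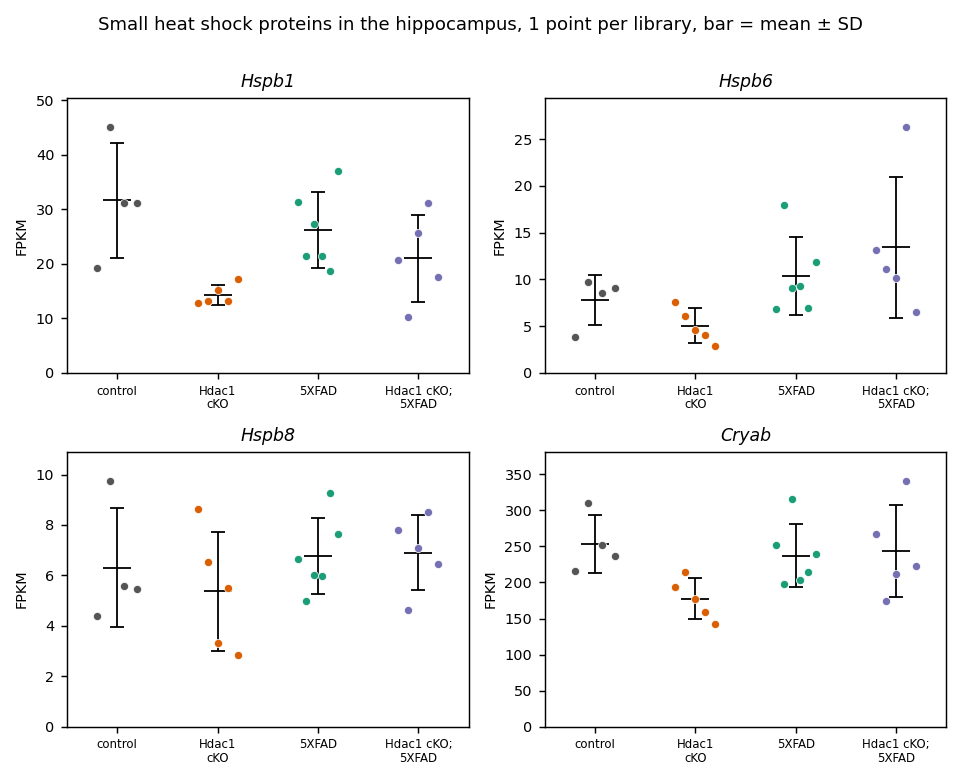
FPKM of Hspb1, Hspb6, Hspb8 and Cryab (y axes, from 0) in each hippocampal library of the 4 groups (x axes), with 1 point per library and bars for the mean ± SD. The 5 Hdac1 cKO points lie below all 4 control points for Hspb1 (12.8 to 17.1 against 19.3 to 44.99 FPKM) and for Cryab (142 to 214 against 216 to 310 FPKM), and overlap them for Hspb6 and Hspb8.

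The cytosolic Hsp70, Hsp90, Hsp40 and Hsp110 members moved little with Hdac1 loss. For Hspa8, the constitutive Hsp70, the controls averaged 1030 ± 90.7 FPKM (SD, n = 4) and the Hdac1 cKO libraries 1029 ± 114 FPKM (SD, n = 5), and the 95% interval of its log2 fold change ran from -0.20 to 0.19. Hsp90aa1 averaged 1118 ± 109 and 998 ± 50.3 FPKM. Its log2 fold change of -0.16 had a limma p of 0.0569 and an exact permutation p of 0.0476, and the groups overlapped. Hsph1 had a log2 fold change of -0.13 (standard error 0.09) and Dnajb1 one of 0.20 (standard error 0.13), with exact permutation p = 0.127 and p = 0.206. The inducible Hsp70 genes were at 2.13 to 3.72 FPKM (Hspa1a) and 0.668 to 2.17 FPKM (Hspa1b) in controls and at 1.57 to 3.56 and 1.01 to 1.32 FPKM in Hdac1 cKO mice, without a difference beyond their spread.

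Across the members, 1 of 10 was a DEG, 2 of 10 (Hspb1 and Cryab) had an unadjusted limma p under 0.05, 2 of 10 did not overlap between groups, and none passed the threshold of 0.05 after adjustment. The same rules held for 3.36% (DEGs), 11.7% (unadjusted p), 4.23% (no overlap) and 0.154% (adjusted p) of the 14265 genes tested. The median log2 fold change of the members was -0.18, with 9 of 10 below 0, beside a median of 0.00 over all genes. Among the 9, Hspa8 lay close to 0 and above it with median scaling (0.01) or a replicate block (0.03). Beyond the members, none of the 58 other chaperone and heat shock factor genes tested in this comparison was a DEG. Among them, the co-chaperone Stip1, which joins Hsp70 to Hsp90, had a log2 fold change of -0.27 (adjusted p = 0.224) with groups that did not overlap, and Hspa4, an Hsp110 relative, one of -0.23 (adjusted p = 0.381). Both had an unadjusted limma p under 0.05.

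The choroid plexus markers moved with this contrast. All 10 were DEGs and lower in Hdac1 cKO mice, none was at 0 in every library of a group, and the difference rested on 3 of the 4 controls. Fibroblast and meningeal markers summed to 63.9 to 126 FPKM in controls and 42.3 to 70.8 FPKM in Hdac1 cKO mice, with 2 of 5 tested genes lower DEGs. Oligodendrocyte markers summed to 1349 to 1418 and 1148 to 1370 FPKM, with no DEG among 9. The 11 immediate early genes, Fos and Nr4a1 among them, summed to 70.3 to 74.1 FPKM in controls and 74.15 to 98.4 FPKM in Hdac1 cKO mice. Nr4a1 alone was at 2.04 to 4.05 and 4.40 to 8.36 FPKM. Control 1, which had the choroid plexus level of the Hdac1 cKO libraries, also had the lowest Hspb1, Hspb6, Hspb8 and Cryab values of the controls. The 5XFAD libraries spanned 96.4 to 8340 FPKM of marker. In rising order of marker, their Hspb1 was at 18.7, 21.4, 31.3, 27.2, 37.0 and 21.4 FPKM. Compound libraries spanned 99.5 to 14472 FPKM of marker. In rising order of marker, their Hspb1 was at 17.5, 25.6, 10.2, 31.1 and 20.7 FPKM. Without control 1, 3 members were DEGs, Hspb1 at -1.25 (adjusted p = 0.000592), Hspb6 at -0.79 and Cryab at -0.59. That fit kept only the 3 controls with high choroid plexus marker, and its share of DEGs over all genes is not given here. The part of the choroid plexus tissue and of these other genes in the member differences was not tested. In bulk tissue, fewer cells of a type and less RNA per cell cannot be told apart.

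**Figure D2:**
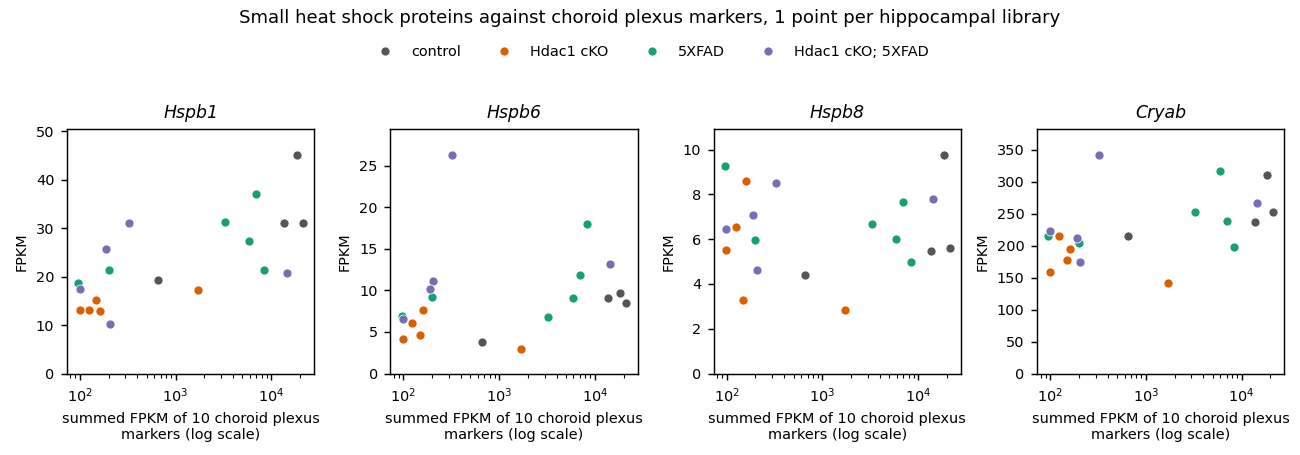
FPKM of each small heat shock protein gene (y axes, from 0) against the summed FPKM of 10 choroid plexus markers (x axes, log scale) in the 20 hippocampal libraries, 1 point per library, coloured by group. The 5 Hdac1 cKO points lie between 99.8 and 1711 FPKM of marker and control 1 at 660, while the other 3 controls lie at 13741 to 21402 and carry the Hspb1 values of 31.1, 31.1 and 44.99 FPKM. Compound 1 lies at 14472 FPKM of marker with Hspb1 at 20.7 FPKM, and compound 4 at 327 with Hspb1 at 31.1 FPKM. The remaining compound points lie at 99.5 to 207 FPKM of marker with Hspb1 at 10.2 to 25.6 FPKM. The 5XFAD points lie at 96.4 to 8340 FPKM of marker with Hspb1 at 18.7 to 37.0 FPKM.

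The second comparison asked what the 5XFAD transgenes changed in mice with intact Hdac1. No member was a DEG. In 5XFAD mice Hspb1 had a lowest, median and highest value of 18.7, 24.3 and 37.0 FPKM, Hspb6 of 6.82, 9.19 and 17.96, Hspb8 of 4.98, 6.34 and 9.25, and Cryab of 198, 227 and 316. Each of these ranges overlapped that of the controls. The co-chaperone gene Dnajb1, which activates Hsp70, came closest to a difference, at 21.3, 29.8 and 33.5 FPKM against 19.7 to 26.2 FPKM in controls. Its log2 fold change was 0.31 (standard error 0.14, limma p = 0.0464, adjusted p = 0.458), and the exact permutation test gave p = 0.0667. The remaining log2 fold changes lay between -0.24 for Hspb1 and 0.36 for Hspb6. In this contrast 6 of 8 microglia markers (sums of 203 to 268 FPKM in controls and 443 to 586 FPKM in 5XFAD mice) and 1 of 9 astrocyte markers (1193 to 1313 and 1304 to 1529 FPKM) were higher DEGs, and all 10 choroid plexus markers had a log2 fold change below 0 (median -1.48) with no DEG. Their part in the member values was not tested.

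Thus 0 of 10 members were DEGs, 1 of 10 had an unadjusted limma p under 0.05, none was separated and none passed adjustment, against 2.95%, 10.7%, 2.90% and 0.708% of the 14402 genes tested. The same held for the other chaperones, among which 0 of 57 were DEGs. The J-domain gene Dnajc7 (log2 fold change -0.43, adjusted p = 0.295) and the chaperonin subunits Cct6a (-0.19, adjusted p = 0.444) and Cct8 (-0.19, adjusted p = 0.455) had unadjusted limma p values under 0.05, with overlapping groups.

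The third comparison set compound mice against the same controls. Hspb1 was at 20.7, 10.2, 25.6, 31.1 and 17.5 FPKM in the 5 compound libraries, with a log2 fold change of -0.59 (standard error 0.31, limma p = 0.0890, exact permutation p = 0.159). Hspb6 was at 13.2, 11.1, 10.2, 26.2 and 6.56 FPKM, with a log2 fold change of 0.65 (standard error 0.36, limma p = 0.101, exact permutation p = 0.19). Both exceeded 1.5-fold in size and neither passed the p threshold. The compound values overlapped the control range, reaching below it for Hspb1 and above it for Hspb6. Cryab was at 267, 175, 211, 341 and 222 FPKM, and Hspb8 at 7.80, 4.61, 7.08, 8.51 and 6.45 FPKM, without a difference from controls (log2 fold changes -0.09 and 0.14). Compound 4 had the highest values of Hspb1, Hspb6, Hspb8 and Cryab in its group, and also the highest sums of oligodendrocyte markers (2191 FPKM, against 1341 to 1570 in the other 4) and of microglia markers (948 FPKM, against 456 to 711). Their part in its values was not tested. Over the group, 7 of 10 choroid plexus markers were lower DEGs than in controls and 6 of 8 microglia markers higher DEGs, and their part in the member values was not tested either. None of the 10 members was a DEG, had an unadjusted limma p under 0.05, was separated or passed adjustment, against 4.24%, 10.5%, 4.27% and 0.662% of the 14348 genes tested. In the pathway lists 0 of 57 genes were DEGs, and Dnajc7 (-0.52, adjusted p = 0.289), Stip1 (-0.24, adjusted p = 0.476) and the mitochondrial chaperonin Hspd1 (-0.22, adjusted p = 0.444) had unadjusted limma p values under 0.05. The call for Hspb1 changed with how the spread was estimated. It became a DEG, at the same log2 fold change, when all 4 hippocampal groups shared 1 limma fit. It was also one without control 1 (-0.80, adjusted p = 0.384) or without compound 4 (-0.75, adjusted p = 0.498). Hspb6 was a DEG without compound 5 (0.85, adjusted p = 0.432) or with a replicate block in limma (0.85, adjusted p = 0.4385).

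The fourth comparison set compound against 5XFAD mice and so asked about Hdac1 loss on the 5XFAD background. Every member overlapped. The largest log2 fold changes were -0.35 for Hspb1 (standard error 0.25, 95% interval -0.89 to 0.19) and 0.29 for Hspb6 (standard error 0.31, 95% interval -0.38 to 0.95), and the other 8 lay between -0.12 and 0.16. For Hspa8, Hsp90aa1 and Hsph1 the intervals were narrow, -0.23 to 0.12, -0.24 to 0.10 and -0.32 to 0.19, so that changes of 1.5-fold lay outside them. They also lay outside those of Cryab (-0.33 to 0.36), Hspb8 (-0.33 to 0.37) and Dnajb1 (-0.38 to 0.16). The same held for Hspa1a (-0.45 to 0.20) and Hspa1b (-0.20 to 0.51), on a scale that understates changes of low genes. None of the 10 was a DEG, had an unadjusted limma p under 0.05, was separated or passed adjustment, against 1.28%, 6.61%, 0.607% and 0.00698% of 14326 genes. Among the co-chaperones, Fkbp5, a glucocorticoid-inducible partner of Hsp90, had a log2 fold change of -0.49 (adjusted p = 0.696) and Bag2, an Hsp70 exchange factor, one of 0.44 (adjusted p = 0.711), both short of 1.5-fold and with groups that did not overlap. The mitochondrial J-domain gene Dnaja3 (0.28, adjusted p = 0.740) and Cct8 (0.19, adjusted p = 0.734) also had an unadjusted limma p under 0.05, and no gene of the lists was a DEG.

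The fifth comparison set compound against Hdac1 cKO mice, the effect of the transgenes where Hdac1 was lost. The median log2 fold change of the members was 0.24, beside -0.01 over all genes. All 10 were above 0, of which Dnajb1 lay below 0 with the ratio of means, quantile normalization or median scaling and Hspa8 with quantile normalization. Hspb6 rose and was the only DEG. It was at 7.63, 6.13, 4.58, 4.10 and 2.91 FPKM in Hdac1 cKO and at 13.2, 11.1, 10.2, 26.2 and 6.56 FPKM in compound mice, so that the lowest compound value lay below 1 Hdac1 cKO value, the highest. The means were 5.07 ± 1.84 and 13.5 ± 7.54 FPKM (SD, n = 5 each). The log2 fold change was 1.17 (standard error 0.31, 95% interval 0.49 to 1.85, limma p = 0.00299, adjusted p = 0.125, exact permutation p = 0.0159). Leaving out compound 4, which held the highest value, left Hspb6 a DEG.

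Hspa1b, an inducible Hsp70, was at 1.25, 1.32, 1.31, 1.01 and 1.25 FPKM in Hdac1 cKO and at 1.73, 1.59, 1.87, 2.05 and 1.67 FPKM in compound mice. All compound values exceeded all Hdac1 cKO values, and the log2 fold change on the log2(FPKM + 1) scale was 0.32 (standard error 0.13, limma p = 0.0311, adjusted p = 0.407, exact permutation p = 0.00794, the smallest that 5 against 5 allows). These values rest on 12 to 39 fragments per library, and the counting interval of the lowest compound value (0.871 to 2.67 FPKM) covered all of the Hdac1 cKO values. On the scale of the ratio of mean FPKM the log2 difference was 0.54, still under 1.5-fold. Its neighbour Hspa1a did not follow, at 1.57 to 3.56 and 2.67 to 3.32 FPKM (log2 fold change 0.16, exact permutation p = 0.373). Cryab had a log2 fold change of 0.43 (standard error 0.16, limma p = 0.0219, adjusted p = 0.355, exact permutation p = 0.0635) with overlapping groups. Hsp90aa1 (0.10, limma p = 0.0938, exact permutation p = 0.0397), Hspb1 (0.45, limma p = 0.0752) and Hspb8 (0.37, limma p = 0.145) overlapped too. Without compound 2, Hspb1 was also a DEG (0.67, adjusted p = 0.0739).

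In this contrast 1 of 10 members was a DEG, 3 of 10 had an unadjusted limma p under 0.05, 1 of 10 was separated and none passed adjustment, beside 3.55%, 10.3%, 3.34% and 1.49% of the 14195 genes tested. Markers of microglia (6 of 8 genes higher DEGs, sums of 216 to 236 and 456 to 948 FPKM), astrocytes (2 of 9, sums of 1201 to 1326 and 1452 to 1622 FPKM) and oligodendrocytes (1 of 9, sums of 1148 to 1370 and 1341 to 2191 FPKM) moved with it. Their part in the Hspb6 difference was not tested. Of the other chaperones, 0 of 56 tested were DEGs. The myosin chaperone Unc45a (-0.46, adjusted p = 0.371), Fkbp5 (-0.39, adjusted p = 0.327), Dnajc7 (-0.31, adjusted p = 0.394) and Cct7 (-0.24, adjusted p = 0.234) had unadjusted limma p values under 0.05.

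**Figure D3:**
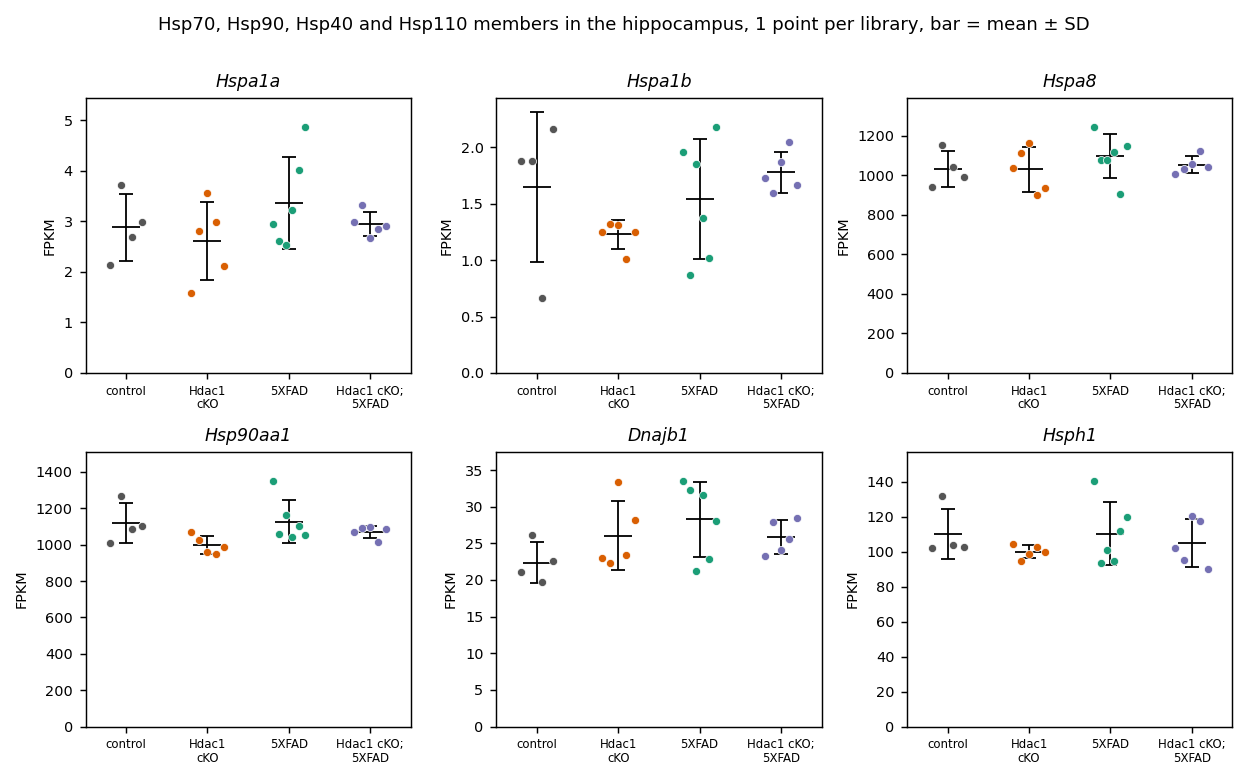
FPKM of the Hsp70 genes Hspa1a, Hspa1b and Hspa8 and of Hsp90aa1, Dnajb1 and Hsph1 (y axes, from 0) in each hippocampal library of the 4 groups (x axes), 1 point per library, bars for the mean ± SD. The 5 compound values of Hspa1b (1.59 to 2.05 FPKM) lie above the 5 Hdac1 cKO values (1.01 to 1.32 FPKM), while Hspa8 stays between 897 and 1242 FPKM in all 4 groups.

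Whether Hdac1 loss acted differently with and without 5XFAD was tested by the interaction of the 2 factors over the 20 hippocampal libraries. Cryab had the smallest p. Its Hdac1 effect was -0.52 without and 0.02 with the transgenes, an interaction of 0.53 on the log2 scale (standard error 0.23, limma adjusted p = 0.507), just short of 1.5-fold. Hspb6 (0.81, standard error 0.45, adjusted p = 0.613) and Hspb1 (0.69, standard error 0.35, adjusted p = 0.579) had larger interactions with wider errors. The other 7 members lay between -0.31 for Dnajb1 and 0.36 for Hspa1b. No member was called at a p under 0.05 with a size of at least 1.5-fold, 1 of 10 had an unadjusted p under 0.05 and none passed adjustment, where 4.07%, 8.97% and 0% of 14389 genes did. Calls appeared as single libraries were left out, for which no share over all genes is given here. Without control 1, Hspb1 (0.90), Hspb6 (1.08) and Cryab (0.61) were all called, with adjusted p of 0.414 to 0.449. Hspb1 was also called without 5XFAD 6 (0.80) or compound 2 (0.91), Hspb6 without 5XFAD 2 (0.98) or compound 5 (1.01), and Cryab without Hdac1 cKO 2 (0.61), 5XFAD 3 (0.62) or compound 2 (0.64). All 10 choroid plexus markers had an interaction above 0, with a median of 1.75 and no call, and their part in these values was not tested. Fkbp5 had an interaction of -0.63 (adjusted p = 0.348) and was the only gene of the pathway lists that was called. Cct8 (0.32, adjusted p = 0.385) and Cct7 (-0.25, adjusted p = 0.542) had an unadjusted p under 0.05 below that size.

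**Figure D4:**
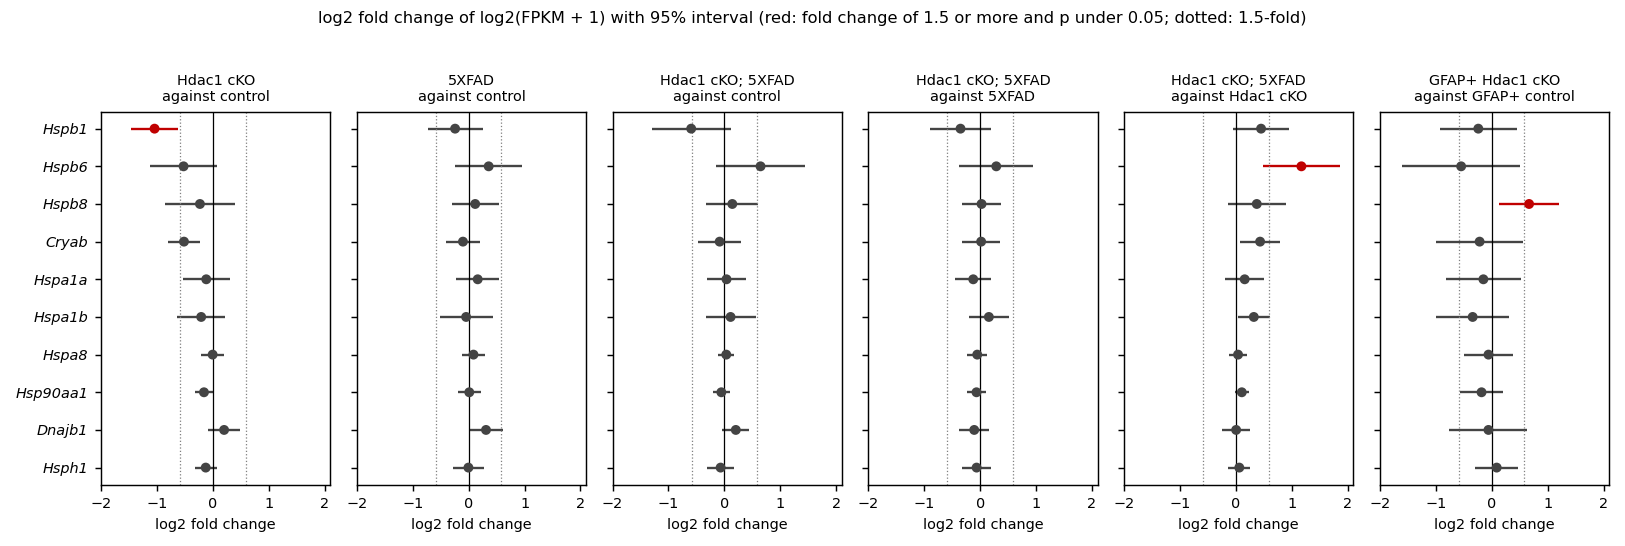
log2 fold changes of the 10 members in the 6 comparisons (x axes, on the log2(FPKM + 1) scale) with 95% intervals from limma, red where the fold change was at least 1.5 and p under 0.05, and dotted lines at 1.5-fold. The red points are Hspb1 in Hdac1 cKO against control (-1.04), Hspb6 in compound against Hdac1 cKO mice (1.17) and Hspb8 in GFAP+ nuclei (0.67).

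The last comparison asked what Hdac1 loss changed in sorted GFAP+ nuclei. Hspb8 was higher in the libraries labelled Hdac1 cKO and was the only member DEG. It was at 6.59, 8.10 and 5.05 FPKM in control and at 10.1, 16.5, 10.2 and 8.12 FPKM in Hdac1 cKO nuclei. The groups did not overlap, but the highest control and the lowest Hdac1 cKO library differed by less than their counting intervals of 6.69 to 9.72 and 6.70 to 9.74 FPKM. The means were 6.58 ± 1.53 FPKM (SD, n = 3) and 11.2 ± 3.62 FPKM (SD, n = 4). The log2 fold change was 0.67 (standard error 0.24, 95% interval 0.13 to 1.21, limma p = 0.0204, adjusted p = 0.984, exact permutation p = 0.0571, the smallest that 3 against 4 allows). The highest value came from GFAP+ Hdac1 cKO 2, whose Hdac1 level of 11.5 FPKM lay above that of 1 control. Without that library the log2 fold change was 0.48 (adjusted p = 0.989), and Hspb8 was no longer a DEG. Hspb2, a small heat shock protein of muscle, was the other chaperone DEG, at 2.06, 3.17 and 1.98 FPKM in control and 3.73, 3.58, 5.19 and 4.90 FPKM in Hdac1 cKO nuclei (log2 fold change 0.66, standard error 0.23, adjusted p = 0.984), without overlap. Its neighbour Cryab, on the opposite strand, was at 64.4, 163 and 103 FPKM in control and 70.0, 62.5, 111 and 124 FPKM in Hdac1 cKO nuclei, without a difference beyond the spread (exact permutation p = 0.686).

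Hspb1 overlapped between the groups of nuclei, at 9.23, 21.0 and 11.02 FPKM in control and 9.76, 7.07, 16.2 and 12.01 FPKM in Hdac1 cKO nuclei. Its log2 fold change of -0.24 had a 95% interval of -0.92 to 0.44, which overlaps that of the hippocampus (-1.46 to -0.62), and the tissue and the library method also differ. The difference between both materials was not tested. Hspb6 was at 3.37, 5.21 and 0.749 FPKM in control and at 3.34, 0.791, 0.604 and 2.02 FPKM in Hdac1 cKO nuclei, a log2 fold change of -0.55 (standard error 0.47, exact permutation p = 0.4). Without GFAP+ control 4, the low control, Hspb6 became a lower DEG (-1.07, adjusted p = 0.827) and Hspb8 lost its call (0.52, adjusted p = 0.838). The cytosolic members differed little. Hspa8 averaged 220 ± 57.6 FPKM (SD, n = 3) against 209 ± 33.2 FPKM (SD, n = 4) in the libraries labelled Hdac1 cKO, Hsp90aa1 145 ± 33.3 against 126 ± 16.1, Hsph1 19.3 ± 4.72 against 20.2 ± 1.28, and Dnajb1 7.53 ± 3.46 against 6.83 ± 1.90 FPKM, with log2 fold changes between -0.18 and 0.09. Hspa1a and Hspa1b were at 0.147 to 1.22 FPKM, on 3 to 33 fragments per library, and no difference was detectable at this depth (exact permutation p = 0.571 and p = 0.229).

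In nuclei 1 of 10 members was a DEG, 1 of 10 had an unadjusted limma p under 0.05, 1 of 10 was separated and none passed adjustment, against 2.58%, 4.70%, 5.72% and 0.0133% of 15070 genes. Of the other chaperones 1 of 59 was a DEG, Hspb2. The markers of oligodendrocytes, whose sums ran from 671 to 1307 FPKM in control and 468 to 1198 FPKM in Hdac1 cKO nuclei, included no DEG, nor did those of astrocytes (2968 to 3583 and 3168 to 3646 FPKM). Choroid plexus markers summed to 53.3 to 219 and 158 to 347 FPKM, with 2 of 8 tested genes higher DEGs, and endothelial markers to 92.5 to 123 and 57.9 to 101 FPKM, with 1 of 8 a lower DEG. Their part in the Hspb8 difference was not tested. Levels in nuclei are set beside those of the hippocampus without a test, since tissue and library method differ. Mean Hspa8 was at 220 and 1030 FPKM and Cryab at 110 and 254 FPKM in control nuclei and hippocampus, whereas Hspb8 was at 6.58 and 6.29 FPKM.

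**Figure D5:**
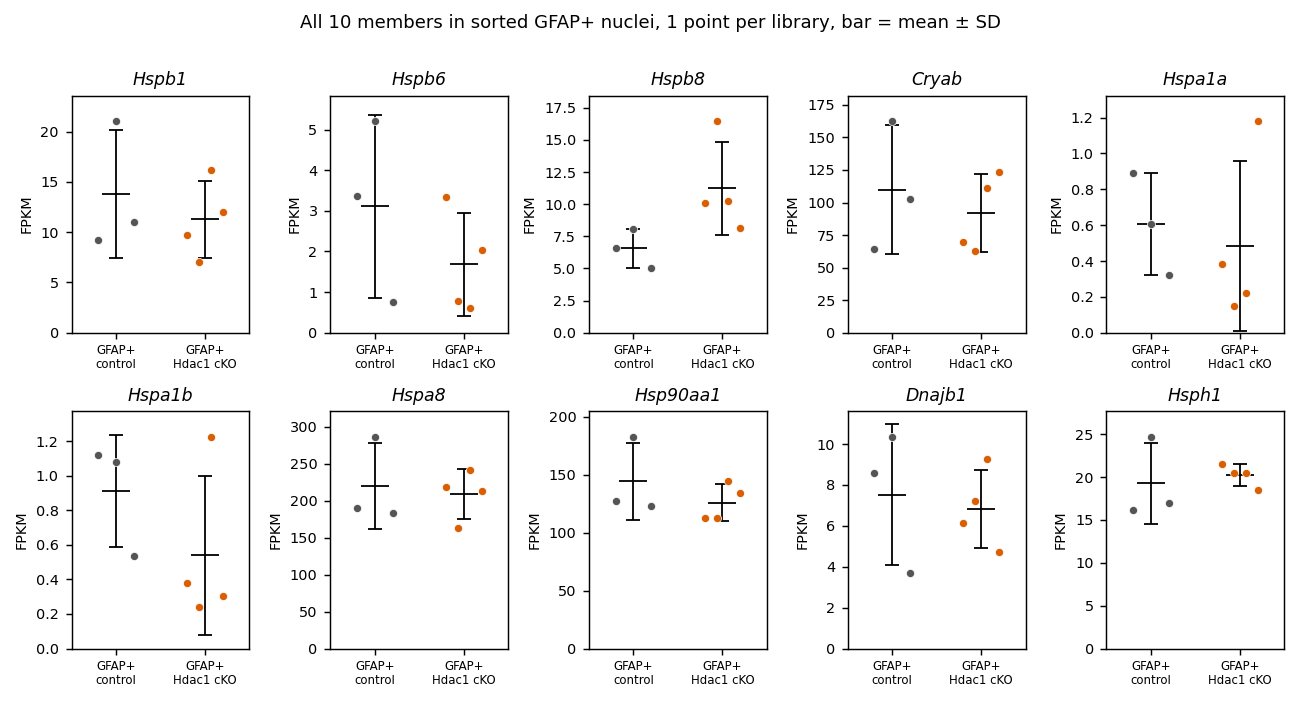
FPKM of the 10 members (y axes, from 0) in each library of sorted GFAP+ nuclei labelled control (3 points) or Hdac1 cKO (4 points), bars for the mean ± SD. The 4 Hdac1 cKO values of Hspb8 (8.12 to 16.5 FPKM) lie just above the 3 control values (5.05 to 8.10 FPKM), and the other 9 members overlap.

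Whether members varied together among libraries of the same group was examined over the 20 hippocampal libraries, with log2(FPKM + 1) centred on each group's mean. Of the 45 pairs, 39 had a Pearson r above 0. How often other gene pairs in these libraries have an r above 0 was not examined. With 100000 permutations within groups, 7 pairs had an unadjusted p under 0.05, but none an adjusted p (Benjamini-Hochberg over the 45) under 0.05, by Pearson or by Spearman correlation. The strongest was Hspb1 with Hsph1 (r = 0.66, permutation p = 0.0086, adjusted p = 0.129, Spearman rho = 0.71, p = 0.00521, adjusted p = 0.0781), and r was 0.69 without the 2 libraries farthest from the median of Hspb1. Hspb8 with Cryab had r = 0.60 (permutation p = 0.00588, adjusted p = 0.129, rho = 0.64, p = 0.00484, adjusted p = 0.0781), and 0.56 without the 2 farthest. Hspb1 with Cryab had r = 0.61 (permutation p = 0.0174, adjusted p = 0.156, rho = 0.58, p = 0.0180, adjusted p = 0.162), and 0.45 without control 1 and compound 2. The link of Hsp90aa1 with Hsph1 (r = 0.58, permutation p = 0.0294, adjusted p = 0.189, rho = 0.31, p = 0.228, adjusted p = 0.489) rested on 2 libraries, control 2 and 5XFAD 1, without which r was 0.10. The near-identical Hspa1a and Hspa1b did not stand out, at r between -0.07 and 0.22 as single libraries were left out. The lowest r was that of Hspb8 with Dnajb1, at -0.39.

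Over the same 20 libraries without centring, the genes whose pattern was most like that of each member were sought among the 12995 genes that averaged 1 FPKM or more, by Pearson r of log2(FPKM + 1), as a description. The libraries share their groups and depth, so such r values carry no test. The closest genes to Hspb1 were Sulf1 (0.82), Gcc1 (0.79) and Defb11 (0.79), to Hspb6 Naglu (0.86), Tmem176b (0.83) and Ctsl (0.83), to Hspb8 Nop14 (0.71), Zfp91Cntf (0.68) and Sesn3 (0.67), and to Cryab Pon3 (0.84), Ctnna1 (0.77) and Bcas1 (0.76). Those closest to Hspa1a were Tns3, Sf3b3 and Bod1 (0.67 to 0.73), to Hspa1b Hps5, Zfp120 and Cited2 (0.71 to 0.78), and to Hspa8 Fam195b, Gm5126 and Rdh11 (0.72 to 0.74). Hsp90aa1 was closest to Mir128-2 (0.80), Nfe2l1 (0.77) and Hsp90b1 (0.76), the Hsp90 of the endoplasmic reticulum. Dnajb1 was closest to Bckdha, Yeats2 and Letmd1 (0.81 to 0.82), and Hsph1 to Dnajc1 (0.82), a J-domain protein of the endoplasmic reticulum, Mir128-2 (0.73) and Stxbp3b (0.72). No member was among the 3 closest genes of another.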

How the data were processed

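The deposited values are FPKM, which the authors made by aligning reads with TopHat to mm9 and running Cufflinks (version 2.0.0 in the submitters' processing notes), 1 table of 23951 genes per library. Hippocampal libraries were HT-3′DGE, which reads transcript 3′ ends, and nuclear libraries SMART-Seq v4, for which the sources used here do not restate the pipeline. Depth is known only in relative terms, from the steps between low values (whole within 0.02 fragments). No 2 libraries held identical values. The study counts as many control and Hdac1 cKO mice as there are hippocampal libraries of these groups, and as many mice as listed samples for the nuclei. For both 5XFAD groups the labels do not state separate animals, so p-values there measure the spread between samples, which may be technical. Promoter sequences came from RefSeq (table on GRCm38.p6) and were located on mm9 by exact match.

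Groups came from the labels. Genes that averaged 0.5 FPKM or more in the libraries compared were tested with limma 3.58.1 (trend and robust, R 4.3.3) on log2(FPKM + 1), with Benjamini-Hochberg adjustment over all genes tested. Fold changes on this scale understate those of low genes. DEGs followed the study's threshold of 1.5-fold and p under 0.05. Each member also had a two-sided exact permutation test (scipy 1.17.1), 60 in all, of which 6 gave p under 0.05. In nuclei this test could not give a p below 0.0571. It was not run on other genes, so the 6 have no share of all genes beside them. The fit was tested on simulated data with known changes before use. Named genes were the 10 members in every comparison, the called genes of fixed chaperone lists (at most 4 by p) with those of unadjusted p under 0.05, and the 3 nearest patterns. Members and lists were chosen with earlier results of these data known. Comparisons with the same control libraries share them. The alternatives were a pseudocount of 0.1, other filters, quantile and median scaling, limma without trend, 1 fit over all groups, the ratio of means, a replicate block, an adjusted p, and leaving out each library. Chromatin immunoprecipitation samples were not analysed here.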

Additional observations from a re-analysis of the deposited data

Results flagged for a closer look

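In 3 of 50 combinations of member and group, 1 library stood apart from the rest of its group by more than Dixon's 95% limit for the gap over the range. Chance gives about 1 in 20. Hsph1 in control 2 was at 131.7 FPKM against 102.0 to 103.6 in the other 3 controls, a gap of 0.946 of the group's range. Hspa1b in the library labelled GFAP+ Hdac1 cKO 3 was at 1.22 FPKM against 0.243 to 0.380 in the other 3, a gap of 0.861 of the range, on 33 fragments against 5 to 9. Hspa1b in Hdac1 cKO 4 was at 1.01 FPKM against 1.25 to 1.32 in the other 4, a gap of 0.779 of the range, on 16 fragments, so that its counting interval of 0.576 to 1.64 FPKM covered the other values. For Cryab, the effect of Hdac1 loss differed with and without 5XFAD by 0.53 on the log2 scale (limma adjusted p = 0.507 over all genes, unadjusted p under 0.05), with 5 of 5 Hdac1 cKO values below all 4 controls and with 3 of 5 compound values inside the 5XFAD range, 1 below and 1 above it.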

How the results depend on the processing

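The direction and call of Hspb1 (Hdac1 cKO against control) and of Hspb6 (compound against Hdac1 cKO) held under every alternative except the adjusted p, which left 0 members in place of 1 in these comparisons and in nuclei. Hspb1 ranged from -1.15 to -1.03 over the settings (adjusted p 0.0741 to 0.182) and from -1.25 to -0.86 as single libraries were left out (adjusted p 0.000592 to 0.223), and Hspb6 from 1.16 to 1.41 and from 0.91 to 1.37. With single libraries left out, the number of member DEGs ran from 1 to 3 for Hdac1 cKO against control (3 without control 1, 2 without Hdac1 cKO 1 or 2), from 0 to 1 for compound against control, from 1 to 2 for compound against Hdac1 cKO (2 without compound 2), from 0 to 1 in nuclei (0 without the library labelled GFAP+ Hdac1 cKO 2) and from 0 to 3 for the interaction. The shares of all genes called with a library left out are not given here. Compound against control gave 1 DEG with 1 fit over all 4 hippocampal groups (Hspb1, -0.59), where more libraries set the spread. Without control 1 or compound 4 it was also Hspb1, at -0.80 and -0.75. Co-varying pairs with an adjusted p under 0.05 numbered 0 to 1 (1 without 5XFAD 3). Same-numbered libraries of different groups came from mice of different genotypes, and their deviations from the group means correlated at -0.11 to 0.08 over genes. With a replicate block, compound against control gave 1 DEG (Hspb6, 0.85) and nuclei 0 (Hspb8, 0.48, under 1.5-fold). No called value changed sign, and the median over all genes stayed between -0.04 and 0.03. Depth limits Hspa1a and Hspa1b, at 3 to 91 fragments.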
